A study of Mus musculus with 5 samples.

Results

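Tetraspanins and the genes of exosome formation and release were compared between 2 groups of mouse tumor macrophages. The set was a list of 41 gene symbols, each of which had 1 row among the 24982 rows of the authors' deposited Cuffdiff table. It held 11 tetraspanins, 17 genes of the ESCRT machinery and 13 Rab, SNARE and related vesicle genes. The macrophages came from tumors of 9609, an MCA fibrosarcoma line. One group of 3 libraries carries the label MEK1-hi for line and genotype and MEK1-hi exosomes as treatment. The other, of 2 libraries, carries the label MEK1-low for line and genotype and, as treatment, exosomes marked MEK1-low (GFP), called GFP_exo in the table. MEK1 is the kinase that phosphorylates ERK. The labels give no mouse strain, age or sex and do not say how macrophages were isolated or whether each library came from a separate animal. The deposited p-values therefore reflect variation among these 5 libraries, part or all of which may be technical. The comparison asks whether the transcripts of the macrophages' own vesicle machinery differed between the groups. Directions are MEK1-hi relative to MEK1-low, and each pair of FPKM values gives MEK1-low first.

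Exosomes form when the membrane of a late endosome buds inward, and they leave the cell when that compartment fuses with the surface. ESCRT complexes gather ubiquitinated cargo, deform the membrane and cut the bud. Tetraspanins, proteins that cross the membrane 4 times, organize surface and endosomal membranes into patches, and several of them are the usual markers of exosomes. Rab GTPases steer the compartments to the cell edge and SNARE proteins fuse them there. In macrophages the same machinery serves the degradation of receptors and the maturation of phagosomes.

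None of the tested vesicle genes passed Cuffdiff's test between the groups in the authors' deposited table. Cuffdiff tested 39 of the 41 and called 0 at a q under 0.05, against 1.32% of all 12311 tested rows (0.999% higher and 0.325% lower). The count of members with an unadjusted p under 0.05 was also 0, where 6.08% of all tested rows lay. The smallest p among the members in the authors' deposited table was 0.105, for Arf6, and the q of all 39 was 0.9998. A q that misses the threshold does not show that the groups were alike. The largest difference of a tested member was 0.50 on the log2 scale (Rab27a), and the smallest that Cuffdiff called in any row was 0.82. Of the 39, 32 (82.1%) lay within 0.2 of 0 on the log2 scale, compared with 58.5% of the 11350 tested rows with at least 1 FPKM in a group. Those rows reach lower levels than the members, and the share was not computed at matched level. The median absolute log2 fold change was 0.09 for the members and 0.16 for those rows. It was 0.15 for the 9210 tested rows within the members' range of mean levels. FPKM is a fragment density that accounts for transcript length and sequencing depth, which allows levels of different genes to be compared. The table holds a pooled value per group, and levels are therefore printed without an SD.

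**Figure D1:**
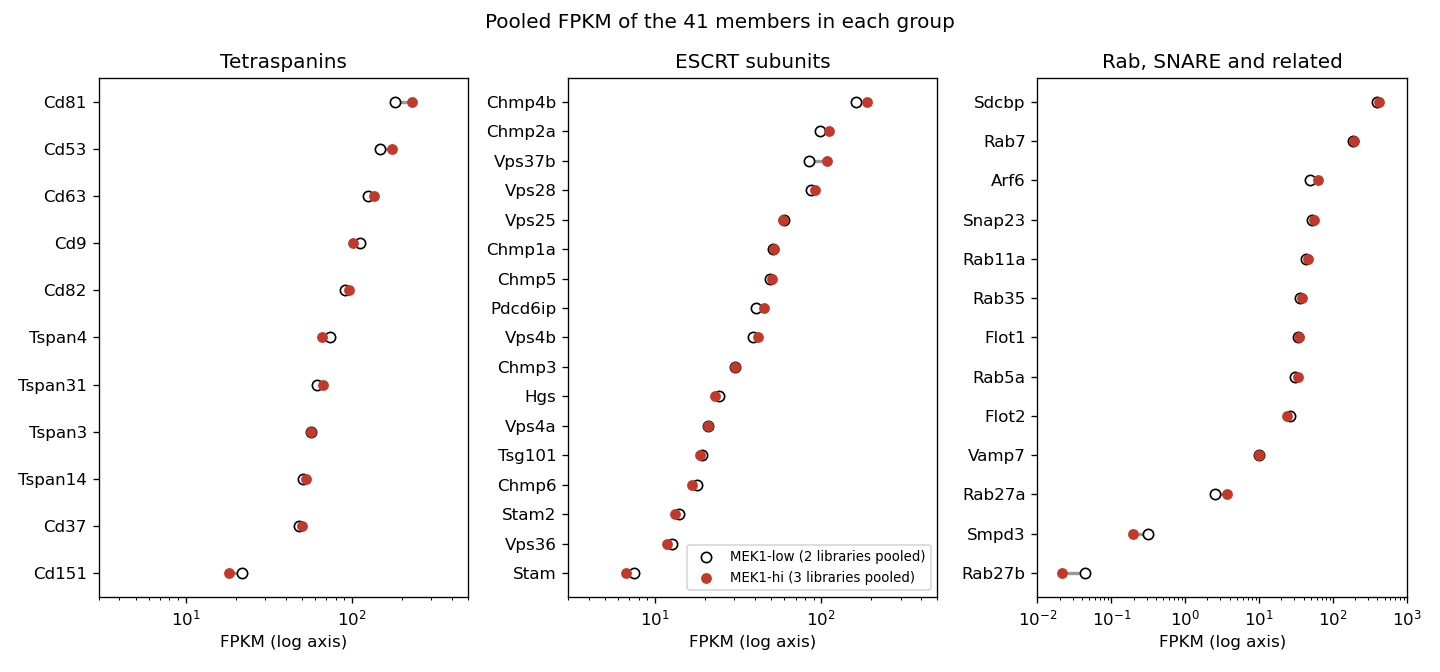
FPKM of each of the 41 members on a log axis, 1 panel per gene group, with an open circle for MEK1-low and a filled one for MEK1-hi, each the authors' pooled value. The circles of Cd81 (182 and 229 FPKM) stand visibly apart, while those of Tspan3, Chmp3 and Vamp7 coincide, and Rab27b and Smpd3 lie under 1 FPKM in both groups. The ratio of MEK1-hi to MEK1-low was larger for Rab27a (1.41), Arf6 (1.30) and Vps37b (1.28) than for Cd81 (1.25). The axis of the Rab and SNARE panel is wider, so gaps cannot be compared by eye across panels.

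As a check of the label, all 8 macrophage markers were detected, from Mertk (25.2 and 23.1 FPKM) to C1qa (3261 and 3758). Of these, 3 were higher and 5 lower in MEK1-hi, with 0 called by Cuffdiff. Mrc1 had 236 and 142 FPKM (log2 fold change -0.73, unadjusted p = 0.017, q = 0.46 in the authors' deposited table). Transcripts that mark other cells were also detected. The 9 fibroblast or tumor markers summed to 1239 and 749 FPKM, all 9 lower and 2 of them called by Cuffdiff (Acta2, Thy1). The 7 T and NK markers summed to 13.1 and 36.6 FPKM, with Klrk1 called higher, and the 4 dendritic cell markers to 6.29 and 16.7, with Clec9a and Xcr1 called higher. Sums for B cells (8.56 and 9.56), neutrophils (28.7 and 26.5), endothelium (8.48 and 9.31), platelets (3.69 and 2.86) and epithelium (18.2 and 12.3) came to under 30 FPKM in each group. No marker of any list was at 0 in either group. In bulk RNA, fewer cells of a type and less RNA per cell cannot be told apart, and the part of these cells in the values below was not tested.

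The tetraspanins had the highest summed level of the 3 groups of genes, 969 and 1047 FPKM. Cd81, a partner of integrins and of other surface receptors, had 182 and 229 FPKM. Its log2 fold change of 0.33 was the highest of the class (statistic 0.87, p = 0.172, q = 0.9998 in the authors' deposited table). The deposited locus of Cd81 (chromosome 7, 143021784 to 143067930) is shared with R74862, which had 0.323 and 0.408 FPKM. Cd53, a tetraspanin made by leukocytes, had 147 and 174 FPKM (log2 fold change 0.25, statistic 0.62, p = 0.329 in the authors' deposited table). For Cd63, the tetraspanin of late endosomes and lysosomes and a standard exosome marker, the values were 124 and 136 FPKM (0.13, statistic 0.34, p = 0.591 in the authors' deposited table). These were the 3 most abundant tetraspanins in both groups, and all 3 had the higher value in MEK1-hi without passing the test.

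The lower values in MEK1-hi among tetraspanins belonged to Cd9, Tspan4 and Cd151. Cd9, which acts in cell adhesion and fusion (chromosome 6, 125460266 to 125494760), had 112 and 101 FPKM (log2 fold change -0.14, statistic -0.39, p = 0.5465 in the authors' deposited table). Tspan4, known from migrasomes, the vesicles left behind by moving cells, had 73.8 and 66.1 FPKM (-0.16, statistic -0.37, p = 0.56 in the authors' deposited table). Cd151, a partner of laminin-binding integrins and the least abundant of the class, had 21.7 and 18.3 FPKM (-0.24, statistic -0.55, p = 0.396 in the authors' deposited table). Fibroblasts also make Cd9 and Cd151, and the 9 fibroblast or tumor markers had a median of -0.87. Of the 11 tetraspanins, 8 lay above 0 as deposited, among them Cd81 (0.33), which like Cd9 is made by most tissues. The part of fibroblasts or tumor cells in the values of any tetraspanin was not tested.

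The other 5 tetraspanins differed by at most 0.11 on the log2 scale. Cd82, a tetraspanin studied as a suppressor of metastasis, had 91.6 and 96.6 FPKM, and Cd37, made by leukocytes, 47.9 and 50.1. Tspan31 had 61.9 and 66.7, but 29.2% of its exon bases in GENCODE lie in exons of Cdk4 on the opposite strand, which makes its level uncertain. Tspan3 had 56.5 and 56.8, and Tspan14, which escorts the protease ADAM10 to the surface, 50.5 and 52.9. Giving the groups equal FPKM sums, which lowers every log2 fold change by 0.10, turned Cd82, Cd37, Tspan3 and Tspan14 to below 0. As deposited 8 of the 11 tetraspanins lay above 0, and after that rescaling 4 did. Shares within the class do not depend on the scaling. Cd81 made up 18.8% of the tetraspanin FPKM sum in MEK1-low and 21.8% in MEK1-hi, while Cd9 made up 11.5% and 9.66%. Cd81 exceeded Cd9 by a ratio of 1.63 in the MEK1-low and 2.26 in the MEK1-hi macrophages, a pair picked after the values were seen, with no replicate error to set it against.

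The promoters of 4 tetraspanins are printed to show how base composition varies within the class, with Cd53 and Cd37 made by leukocytes and Cd81 and Cd9 made by most tissues. RefSeq windows on GRCm38.p6 were available for 32 of the 41 members, with 41 windows in all, since some genes have several starts. Only the 250 bases before each start were read. Each line below runs 5′ to 3′ on the strand of the gene, and capitals mark GGGCGG, the GC box, or GAGGAAGT, a form of the motif of the myeloid factor PU.1, on either strand. The windows are chr3:106790150-106790399 (minus strand) for Cd53, chr7:45238840-45239089 (minus) for Cd37, chr7:143052500-143052749 (plus) for Cd81 and chr6:125494761-125495010 (minus) for Cd9.
Cd53: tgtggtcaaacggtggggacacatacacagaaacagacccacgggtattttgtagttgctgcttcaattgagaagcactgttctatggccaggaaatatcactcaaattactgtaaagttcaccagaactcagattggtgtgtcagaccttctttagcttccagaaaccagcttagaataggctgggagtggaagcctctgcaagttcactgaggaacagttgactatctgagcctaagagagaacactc
Cd37: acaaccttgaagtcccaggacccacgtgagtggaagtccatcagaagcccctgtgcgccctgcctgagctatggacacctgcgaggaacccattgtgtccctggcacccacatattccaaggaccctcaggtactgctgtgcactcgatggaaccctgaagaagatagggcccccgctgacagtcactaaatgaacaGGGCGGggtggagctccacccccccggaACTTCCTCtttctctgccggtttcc
Cd81: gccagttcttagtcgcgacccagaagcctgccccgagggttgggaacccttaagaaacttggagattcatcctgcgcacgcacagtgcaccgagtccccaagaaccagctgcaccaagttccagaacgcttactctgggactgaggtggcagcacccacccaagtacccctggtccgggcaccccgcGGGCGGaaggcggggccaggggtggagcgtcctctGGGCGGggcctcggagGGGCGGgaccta
Cd9: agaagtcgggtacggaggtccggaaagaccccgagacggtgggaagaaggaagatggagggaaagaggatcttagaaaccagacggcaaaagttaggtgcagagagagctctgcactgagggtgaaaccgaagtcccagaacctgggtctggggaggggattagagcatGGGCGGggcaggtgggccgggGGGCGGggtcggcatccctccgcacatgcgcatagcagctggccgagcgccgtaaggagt

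The Cd53 window held 2 CG dinucleotides at a GC content of 45.2% and the Cd37 window 8 at 58.8%. The Cd81 and Cd9 windows held 16 each, at 65.6% and 61.6%. Other tetraspanin windows ran from 2 CG dinucleotides, in 1 window of Tspan14, to 24 in 1 of Tspan4. Cd63 had 6 at 48.8% and Tspan31 7 at 46.0%, both under the count of Cd37. The 4 printed windows were picked, and a relation of CG content to the tissues that make a gene was not tested. Over all members the median was 14 CG dinucleotides per window, with 20 in the ESCRT genes and 11 in the tetraspanins, compared with 6 over all 32851 windows of the table. GGGCGG stood in 20 of the 41 member windows (48.8%), and in 32.7% of all windows. GAGGAAGT stood in 2 member windows, of Cd37 and Cd82, and in 2.44% of all. TTCNNNGAA, the form of the interferon-gamma activated site, stood in 1 member window, of Rab11a, and in 7.02% of all, and TATAAA in 1, of Rab7, and in 12.4% of all. All were searched on both strands. These are matches of letters and not measured sites, and they say nothing about binding in these cells.

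The ESCRT genes had a median log2 fold change of 0.01 as deposited and -0.09 after rescaling to equal FPKM sums, and as deposited ran from -0.17 to 0.35. In order of action, the ESCRT-0 genes bind ubiquitinated cargo first. Hgs had 24.2 and 22.9 FPKM, Stam2 13.9 and 13.2, and Stam 7.49 and 6.65 (log2 fold change -0.17, statistic -0.40, p = 0.538 in the authors' deposited table). All 3 lay below 0, none past the test.

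Of the ESCRT-I genes, Tsg101, the cargo-binding subunit also recruited by budding retroviruses, had 19.2 and 18.8 FPKM, and Vps28 86.4 and 92.3. Vps37b, another ESCRT-I subunit (chromosome 5, 124004641 to 124032260), had 85.0 and 109 FPKM. Its log2 fold change of 0.35 was the highest among the ESCRT genes (statistic 0.93, p = 0.148, q = 0.9998 in the authors' deposited table). In GENCODE, 32.9% of the exon bases of Vps37b lie in exons of Hip1r on the opposite strand. Without the strand setting of the counting, reads of the 2 genes cannot be told apart there. Among the members named in full, overlaps of over 10% were also annotated for Arf6 (13.6%), Tspan4 (13.4%) and Cd9 (10.7%).

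ESCRT-II, which links cargo capture to the cutting step, was represented by Vps25 (59.6 and 58.5 FPKM) and Vps36. Vps36 had 12.7 and 11.8 FPKM (log2 fold change -0.10, statistic -0.26, p = 0.686 in the authors' deposited table). Vps25 shares 67.2% of its annotated exon bases with Ramp2 on the same strand, so its level is uncertain. ESCRT-III forms the filaments that cut the bud. Chmp4b, its main filament subunit and the most abundant ESCRT gene (chromosome 2, 154657026 to 154694783), had 163 and 189 FPKM (0.22, statistic 0.58, p = 0.362 in the authors' deposited table). Chmp2a had 98.6 and 111 FPKM (0.18, statistic 0.48, p = 0.463 in the authors' deposited table). The remaining filament genes lay nearer to 0, with 51.4 and 51.8 FPKM for Chmp1a, 49.1 and 50.4 for Chmp5, 30.5 and 30.1 for Chmp3, and 17.9 and 16.8 for Chmp6 (-0.09, statistic -0.12, p = 0.854 in the authors' deposited table).

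The table places Chmp6 in a locus shared with Rptor, and its log2 fold change per unit of test statistic was 0.79, compared with a median of 0.38 over the members in the authors' deposited table. Pdcd6ip, which encodes ALIX, the adaptor that brings syntenin and its cargo to ESCRT-III, had 40.6 and 45.3 FPKM. The ATPases that take the filaments apart were close between groups, with 20.8 and 20.9 FPKM for Vps4a and 38.6 and 41.6 for Vps4b. Of the 17 ESCRT genes, 9 lay above 0 as deposited and 5 after rescaling to equal FPKM sums, which turned Vps28, Chmp1a, Chmp5 and Vps4a. Centring on the median of all rows turned Chmp3 to above 0.

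**Figure D2:**
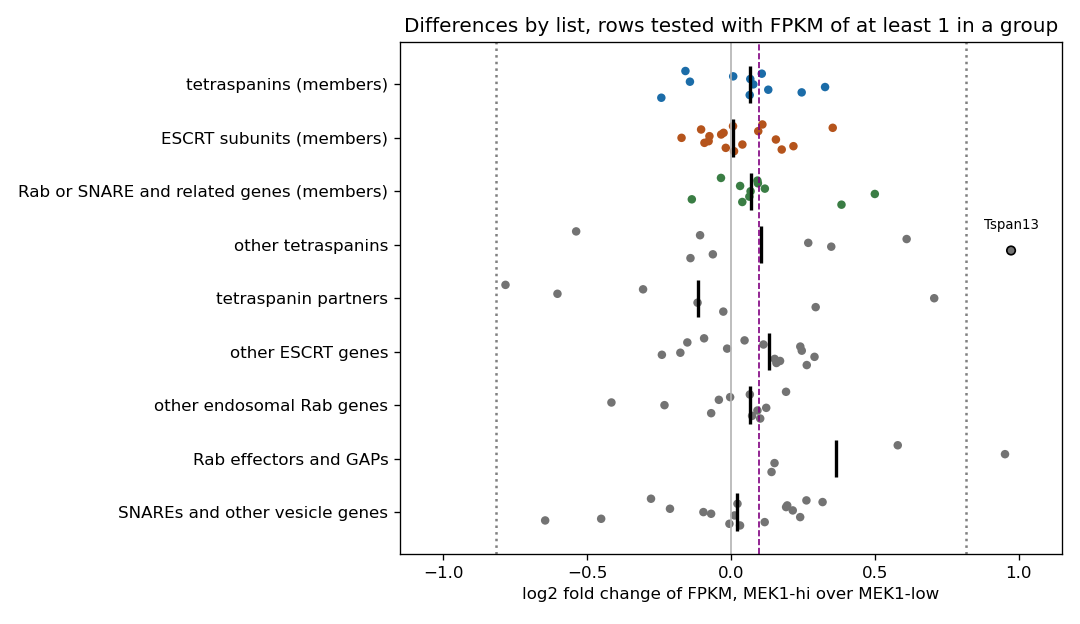
Log2 fold change of FPKM, MEK1-hi over MEK1-low, for each tested gene with at least 1 FPKM in a group, by list, where each point is a gene and each black bar the median of its list. Dotted lines mark 0.82 in either direction, the smallest difference Cuffdiff called anywhere, the dashed line marks the shift of 0.10 that equal FPKM sums would remove, and Tspan13 is the only point called.

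The Rab, SNARE and related genes had a median of 0.07 among their 11 tested members and held both the most and the least abundant genes of the set. Sdcbp, which encodes syntenin, the adaptor between syndecans and ALIX in exosome formation (chromosome 4, 6365680 to 6396122), had 397 and 423 FPKM (log2 fold change 0.09, statistic 0.21, p = 0.741 in the authors' deposited table). Rab7, the GTPase of late endosomes and lysosomes, had 186 and 190 FPKM (0.03, statistic 0.08, p = 0.897 in the authors' deposited table). The early endosome gene Rab5a had 30.6 and 33.2 FPKM (0.12, statistic 0.32, p = 0.622 in the authors' deposited table). The recycling endosome gene Rab11a had 43.6 and 45.6 FPKM, and Rab35, which acts in recycling and in exosome docking, 36.2 and 37.9. Rab7 was 6.06 times as abundant as Rab5a in MEK1-low and 5.71 times in MEK1-hi.

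The Rab27 genes, known for docking multivesicular compartments at the cell surface, were scarce. Rab27a (chromosome 9, 73044810 to 73097614) had 2.56 and 3.63 FPKM, the lowest level of any tested member. Its log2 fold change of 0.50 was the largest among the tested members (statistic 0.91, p = 0.158, q = 0.9998 in the authors' deposited table), and with a pseudocount of 1 it was 0.376, just under the 0.377 of Arf6. Rab27b had 0.0444 and 0.0214 FPKM and was not tested by Cuffdiff. Smpd3, which encodes the neutral sphingomyelinase of the ceramide route of exosome budding, had 0.313 and 0.194 FPKM and was not tested either. No fold change is given for these 2 genes.

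Arf6, a GTPase of surface membrane traffic (chromosome 12, 69372150 to 69375980), had 48.3 and 63.0 FPKM. Its log2 fold change was 0.38 (statistic 1.04, p = 0.105, q = 0.9998 in the authors' deposited table). The SNARE gene Snap23, of fusion at the cell surface, had 51.2 and 54.6 FPKM. Vamp7, of fusion of late endosomes, had 10.1 and 9.83 (-0.03, statistic -0.08, p = 0.8995 in the authors' deposited table). The flotillins, scaffold proteins of membrane rafts and common exosome markers, had 34.1 and 35.0 FPKM for Flot1 and 26.6 and 24.2 for Flot2 (-0.14, statistic -0.37, p = 0.573 in the authors' deposited table). Rescaling to equal FPKM sums turned Sdcbp, Rab7, Rab11a, Rab35, Snap23 and Flot1 to below 0, so 3 of the 11 stayed above 0 compared with 9 as deposited.

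Across the whole set the order of levels was nearly the same in both groups. Spearman's rank correlation between the groups' FPKM over the 41 genes was 0.99, given as a description, since all values of a group come from the same libraries. In MEK1-hi the levels ran from 0.0214 to 423 FPKM, and differences small beside that spread leave most ranks in place. No other list was correlated in this way, so whether the value is particular to the set cannot be said. Of the 41, 36 had at least 10 FPKM in both groups, and the median member lay at the 86.5th percentile of level among tested rows. The rank correlation between the mean level and the log2 fold change, a relation looked at after the values were seen, was 0.49 over the 39 tested genes. It was 0.87 over the 17 ESCRT genes, 0.69 over the 11 tetraspanins and 0.12 over the 11 tested Rab, SNARE and related genes. Over the 11350 tested rows with at least 1 FPKM in a group it was 0.20. The genes of each correlation share the same libraries and the same scaling. The mean level and the log2 fold change are also computed from the same pair of FPKM values, so they are not independent. The ESCRT genes include Vps25 and Vps37b, whose exons overlap those of other genes. The median log2 fold change was 0.06 over the tested members and -0.02 over those 11350 rows. As deposited, 26 of the 39 lay above 0, with 27 after centring on the median of all rows and 12 after rescaling to equal FPKM sums. Both scalings shift every row by the same amount, so these counts move for all genes. Over the 11350 rows, 5277 lay above 0 as deposited, 5675 after centring and 3471 after rescaling. The gap between the members' median and that of all rows is the same under each.

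**Figure D3:**
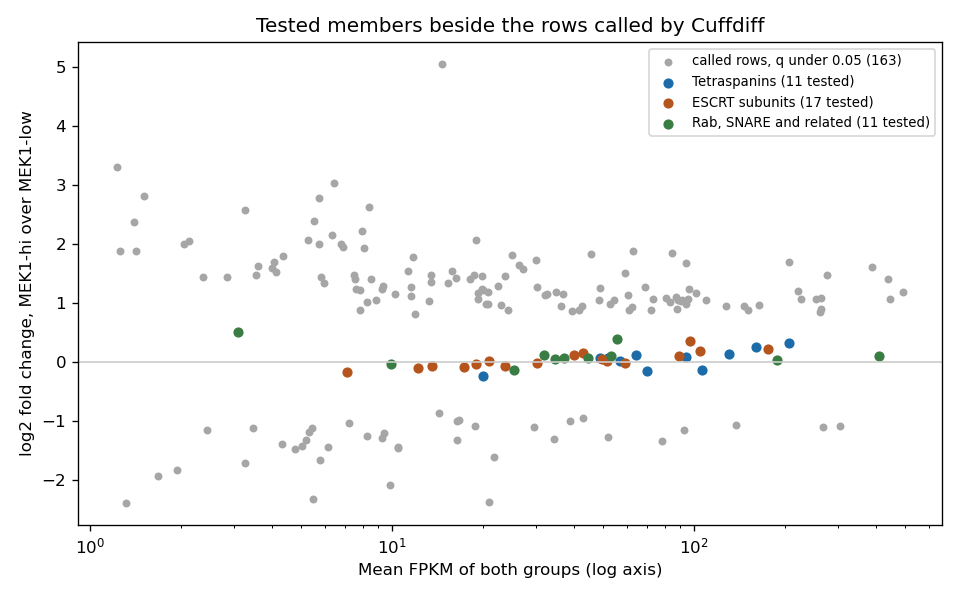
Log2 fold change against mean FPKM of both groups (log axis), with the 39 tested members colored by group and the 163 rows called by Cuffdiff in gray. The members lie between -0.24 and 0.50, inside the band between called higher and called lower rows. No called row had an absolute difference under 0.82. Other tested rows that were not called are not drawn, so the band is not empty of other genes.

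The test called other rows within the members' range of levels. Between 3.10 and 410 FPKM, the range of the tested members' mean levels, 146 of 9210 tested rows (1.59%) were called, the smallest at 0.82 on the log2 scale. This wide range holds most of the 12311 tested rows, while the median member lay at the 86.5th percentile of level. The share called is therefore not one at matched level. With so small a share, the 0 calls among the 39 tested members are near the background and do not set the members apart.

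Further genes of the pathway, from 6 lists with 77 genes, gave 1 call. Of 65 tested, Cuffdiff called 1 higher and 0 lower, while an unadjusted p under 0.05 was reached by 3 with a higher and 2 with a lower value. Over all tested rows 1.32% were called and 6.08% had an unadjusted p under 0.05, so these counts are near the background. The call was Tspan13, one of 20 other tetraspanins of which 11 were tested (chromosome 12, 36014555 to 36042478). It rose from 15.5 to 30.5 FPKM (log2 fold change 0.97, statistic 2.41, p = 0.00015, q = 0.0163 in the authors' deposited table). Tspan32, a tetraspanin of blood cells, was the other abundant gene of that list, with 17.6 and 21.1 FPKM (0.27, p = 0.326 in the authors' deposited table). The other tetraspanins were scarce, summing to 67.8 and 87.4 FPKM, and 9 of the 20 were not tested. The summed T and NK markers (13.1 and 36.6 FPKM) and dendritic cell markers (6.29 and 16.7) were also higher in MEK1-hi, and their part in the value of Tspan13 was not tested.

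The proteins that bind tetraspanins had 0 of 7 called by Cuffdiff, while Itga4 and Ptgfrn had an unadjusted p under 0.05. Ptgfrn, which encodes a direct partner of CD9 and CD81, had 39.3 and 22.8 FPKM (log2 fold change -0.78, p = 0.0022, q = 0.125 in the authors' deposited table). Itga4, the integrin chain by which leukocytes bind vascular cells, had 15.7 and 25.7 FPKM (0.71, p = 0.0037, q = 0.177 in the authors' deposited table). Igsf8, a relative of Ptgfrn with the same tetraspanin partners, had 66.7 and 81.8 FPKM (0.29), and the integrin chain gene Itgb1 214 and 173 (-0.31), each with q = 0.9998 in the authors' deposited table. The list's absolute log2 fold changes had a median of 0.31, compared with 0.13 for the tetraspanin members and 0.16 over all rows. The summed fibroblast or tumor markers (1239 and 749 FPKM) were also lower in MEK1-hi, as were Ptgfrn and Itgb1, and their part in these values was not tested.

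The other ESCRT genes had 0 of 15 called by Cuffdiff and 0 with an unadjusted p under 0.05. Ist1, an ESCRT-III related gene, had 117 and 130 FPKM (0.15) and Mvb12a, of ESCRT-I, 43.5 and 53.2 (0.29). Other endosomal Rab genes also had 0 of 11 called and 0 with an unadjusted p under 0.05. Rab5c, the most abundant Rab gene of the lists, had 244 and 243 FPKM (-0.0030), and Rab14 56.9 and 54.2 (-0.07). Among effectors and GTPase activators of Rab proteins, 0 of 4 were called and 1 was higher at an unadjusted p under 0.05. That was Unc13d, a RAB27 effector in granule release, with 5.80 and 8.67 FPKM (0.58, p = 0.0327, q = 0.668 in the authors' deposited table). Tbc1d10a had 42.2 and 46.6 FPKM (0.14) and Tbc1d10b 13.1 and 14.5 (0.15). Each gene named from these 3 lists other than Unc13d had q = 0.9998 in the authors' deposited table.

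SNAREs and other vesicle genes had 0 of 17 called by Cuffdiff, and 1 gene with a lower value had an unadjusted p under 0.05. That was Sdc1, a syndecan whose tail binds syntenin, with 28.6 and 18.3 FPKM (log2 fold change -0.65, p = 0.0108, q = 0.342 in the authors' deposited table). Sdc3, a more abundant syndecan, had 155 and 183 FPKM (0.24), and the endosomal SNARE gene Vamp8 202 and 252 (0.32). Sdcbp, whose product binds syndecan tails, differed by 0.09 on the same log2 scale.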

How the data were processed

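RNA from tumor macrophages of 5 samples was measured by poly(A) RNA-seq, 3 MEK1-hi and 2 MEK1-low. FastQC 0.73, TopHat, Cufflinks and Cuffdiff, with the build mm10, are named per the submitters' processing notes, which state no role or order. Gene annotation and library strand option: not given in the sources used here.

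A single Cuffdiff table was deposited. Its FPKM values are pooled by the authors, 1 per group. Cuffdiff's statistic, a score per row, was likewise deposited, and the p-values and q-values (p adjusted over the 12311 tested rows) are also theirs. Without values per library no test of replicates was made, and no achieved depth, SD or interval can be given.

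The log2 fold changes were computed here from the deposited FPKM, since 515 cells of the authors' own column held no number. Rows were called at q under 0.05. Medians used tested rows with an FPKM of at least 1 in one group and no pseudocount. Alternatives changed the q threshold, the adjustment, a fold threshold, the FPKM minimum, the pseudocount, the scaling and rows with several symbols.

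The members, the lists and the named genes were chosen with earlier results of these data known. Named in full were members with an unadjusted p under 0.05 (0 genes) and, in each of 3 groups, the 3 most abundant and the 3 highest and 3 lowest log2 fold changes (19 genes). From each pathway list these were the 2 most abundant genes and those with p or q under 0.05. Further members are given with their values. Gene positions are the loci of the deposited table (mm10), counted from 1, and a locus can hold several genes. Loci shared with other rows were those of Cd81, Cd82, Cd151, Tspan4, Chmp6, Rab5a, Rab35 and Smpd3. Exon overlaps come from GENCODE release M21 and promoter sequences from RefSeq (GRCm38.p6). The calculations were tested on simulated data. Work was done in Python 3.11.15 with pandas 2.3.3, numpy 2.4.6, scipy 1.17.1 and matplotlib 3.10.9.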

Additional observations from a re-analysis of the deposited data

How the results depend on the processing

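The count of called members stayed 0 at a q of 0.1 and at an unadjusted p of 0.05, which could have added calls. It was also 0 under the Benjamini-Yekutieli adjustment, with a log2 fold threshold of 1 and without rows of several symbols. Those settings can only remove calls, so they could not have changed a count of 0. Rescaling to equal FPKM sums moved the median log2 fold change of the tetraspanins to -0.0318, of the ESCRT genes to -0.0918 and of the Rab, SNARE and related genes to -0.0308, because it lowers every value by 0.10. Under it the values of 14 members turned to below 0, namely Tspan14 (-0.0318), Cd82 (-0.0213), Cd37 (-0.0338), Tspan3 (-0.0912), Vps28 (-0.0041), Chmp5 (-0.0592), Vps4a (-0.0918), Chmp1a (-0.0883), Flot1 (-0.0596), Snap23 (-0.007), Sdcbp (-0.0053), Rab35 (-0.0308), Rab7 (-0.0672) and Rab11a (-0.035). Centring on the median of all tested rows turned Chmp3 (0.0025) and Rab5c (0.0176) to above 0. The pseudocount turned none of the 3 medians and no named gene, and the FPKM minimum, run for the medians, turned none of those. No paired analysis was possible because the table holds 1 pooled value per group, and for the same reason no library could be left out. Depth per library is unknown, so no detection limit can be given for Rab27b and Smpd3.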
